A study of Mus musculus with 6 samples.

Results

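Genes of the adipocyte, the cell that stores triglyceride and secretes hormones such as adiponectin, were followed in the uterus of 2-week-old female mice. The set held 44 listed genes, chosen by name. A gene was measured when the platform annotation gave at least 1 probe set exactly that symbol and no other, and its brightest probe set stood for it. This held for 32 of the 44, among 16813 genes in all, with 58 probe sets among 41420. Cfd, Apoc1, Plin1, Plin4, Cidea, Cebpa, Fabp5, Aqp7, Adrb3, Scd1, Scd2 and Ucp1 were not analysed here.

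The uteri came from 3 samples labelled Arid1a d/d and 3 labelled Arid1a f/f, with 1 Affymetrix array each. Arid1a encodes a DNA-binding protein of SWI/SNF, a machine that moves nucleosomes. By convention d is a deleted allele and f a floxed, undeleted one. All mice were intact and no treatment is given. The labels name neither the strain, the Cre that made the deletion nor the part of the gene it removes, and do not say whether a sample was a single animal. Arid1a measured 6.98, 7.06 and 7.04 in d/d uteri, against 7.54, 7.58 and 7.71 in f/f uteri on the log2 scale, a difference of -0.58 ± 0.09 (SE; limma adjusted p = 0.0260 over genes). Array medians of the linear intensities ran from 6.34 to 6.59. Every level below is a log2 intensity, and 2.69 is its median over all probe sets, under which background weighs heavily. Every difference is d/d minus f/f.

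A fat cell takes up fatty acids that lipoprotein lipase frees at the vessel wall, binds them to carrier proteins, joins them to glycerol and keeps the product in a droplet coated with perilipins and CIDE proteins. Lipases release the fat again. The nuclear receptor PPARγ and the C/EBP proteins switch on this programme. A dissected uterus carries fat along its mesentery, so that adipocyte transcripts in uterine RNA can come from fat left on the tissue as well as from cells of the uterus that use the same enzymes. Of the 32 measured genes, 8 were taken as largely confined to fat cells (Adipoq, Retn, Lep, Cidec, Car3, Adig, Lipe and Thrsp). The other 24 were not, and most of them serve lipid metabolism in many cell types.

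The sequences just upstream of 3 genes with opposite behaviour are shown, Adipoq and Thrsp, whose brightest probe sets were lower in every d/d array, and Gpat3, higher in every d/d array. Each is the strand of the gene over the 150 bases before its start in RefSeq on GRCm38.p6, with CCAAT or its reverse complement ATTGG in capitals. These lie at chr16:23146386-23146535 (plus strand) for Adipoq, chr7:97417551-97417700 (minus strand) for Thrsp and chr5:100846079-100846228 (plus strand) for Gpat3.
Adipoq: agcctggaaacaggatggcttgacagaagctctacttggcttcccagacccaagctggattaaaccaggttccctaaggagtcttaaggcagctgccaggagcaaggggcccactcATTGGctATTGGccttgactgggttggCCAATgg
Thrsp: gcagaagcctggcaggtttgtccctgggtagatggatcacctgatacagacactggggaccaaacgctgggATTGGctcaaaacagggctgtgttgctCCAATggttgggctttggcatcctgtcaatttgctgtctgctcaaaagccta
Gpat3: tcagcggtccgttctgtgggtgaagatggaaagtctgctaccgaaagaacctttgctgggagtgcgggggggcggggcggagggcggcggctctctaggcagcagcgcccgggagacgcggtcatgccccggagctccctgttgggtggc
The Adipoq stretch holds 3 matches, the Thrsp stretch 2 and the Gpat3 stretch 0. CCAAT on either strand is common, being found in 37.4% of all 32851 RefSeq windows that run from 250 bases before to 50 bases after a gene's start, and in 14 of the 33 windows (42.4%) of 25 measured adipocyte genes. The letters AGGTCA on either strand, a core sequence bound by many nuclear receptors, were in 16.3% of all windows and in 12 of the 33 (36.4%). The windows are longer than the 150 bases shown, and the 3 genes were picked, so a link of CCAAT with direction was not tested. All of these are matches of letters, and binding was not measured.

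Adipoq, Retn, Cidec, Car3, Fabp4 and other genes of fat hormones and fat cell proteins had lower mean levels in d/d uteri, unevenly so among arrays. By their brightest probe sets none of them passed the test with all arrays, while a dimmer probe set each of Car3 and Fabp4 did. Of 32 measured genes 0 were called lower by limma at an adjusted p under 0.05 over all genes, where 0.512% of all genes were, and 3 were called higher, against 0.630%. At an unadjusted p under 0.05, 13 of the 32 were lower, against 6.88% of all genes, and 3 were higher, against 5.29%. For 12 of the 32 the highest d/d value was under the lowest f/f value, as for 9.42% of all genes, and for 3 the lowest d/d value exceeded the highest f/f value, against 7.10%. The median difference was -0.25 over the 32 genes, -0.998 over the 8 fat-confined genes and -0.12 over the other 24, while the median over all genes was -0.01. In whole tissue, fewer fat cells and less RNA per fat cell cannot be told apart.

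Adipoq encodes adiponectin, the most abundant hormone of fat. It measured 7.05, 5.49 and 5.90 in d/d arrays 1, 2 and 3, against 7.50, 7.61 and 8.11 in f/f arrays 1, 2 and 3. All d/d values lay below all f/f values, with d/d 1 closer to the f/f arrays than to the other d/d arrays. The means were 6.15 ± 0.81 in d/d and 7.74 ± 0.33 in f/f (SD, n = 3 each), a difference of -1.59 ± 0.37 (SE) or 3.01-fold lower, with a limma adjusted p of 0.112. Retn, the gene of resistin, stood at 5.89, 4.68 and 5.08 in d/d uteri and at 6.29, 6.59 and 7.16 in f/f uteri. It showed the same array order within d/d and again no overlap, with a difference of -1.46 ± 0.33 (SE; limma adjusted p = 0.0970). Lep, the leptin gene, lay below 2.69 on all arrays, between 1.74 and 1.94 in d/d and between 1.95 and 2.31 in f/f. Orm1, an acute phase protein of liver and fat, reached 2.09, 1.82 and 2.11 in d/d uteri and 1.92, 1.94 and 2.90 in f/f uteri, so that f/f 3 stood alone above 2.69.

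Cidec, which lets lipid droplets fuse into the single large droplet of white fat, measured 3.45, 2.34 and 2.33 in d/d uteri, against 3.61, 3.47 and 4.53 in f/f uteri. Its d/d 1 value was 0.019 from the nearest f/f value, 1.11 above the next d/d array, and the difference was -1.16 ± 0.37 (SE; limma adjusted p = 0.246). The other droplet proteins did not follow it. Plin2, the perilipin that coats droplets in almost every cell type, stood at 7.88, 7.83 and 7.86 in d/d and 7.87, 8.06 and 7.99 in f/f, with a 95% confidence interval of the difference from -0.31 to 0.08. Plin5, a perilipin of oxidative tissues, lay below 2.69 on every array.

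**Figure D1:**
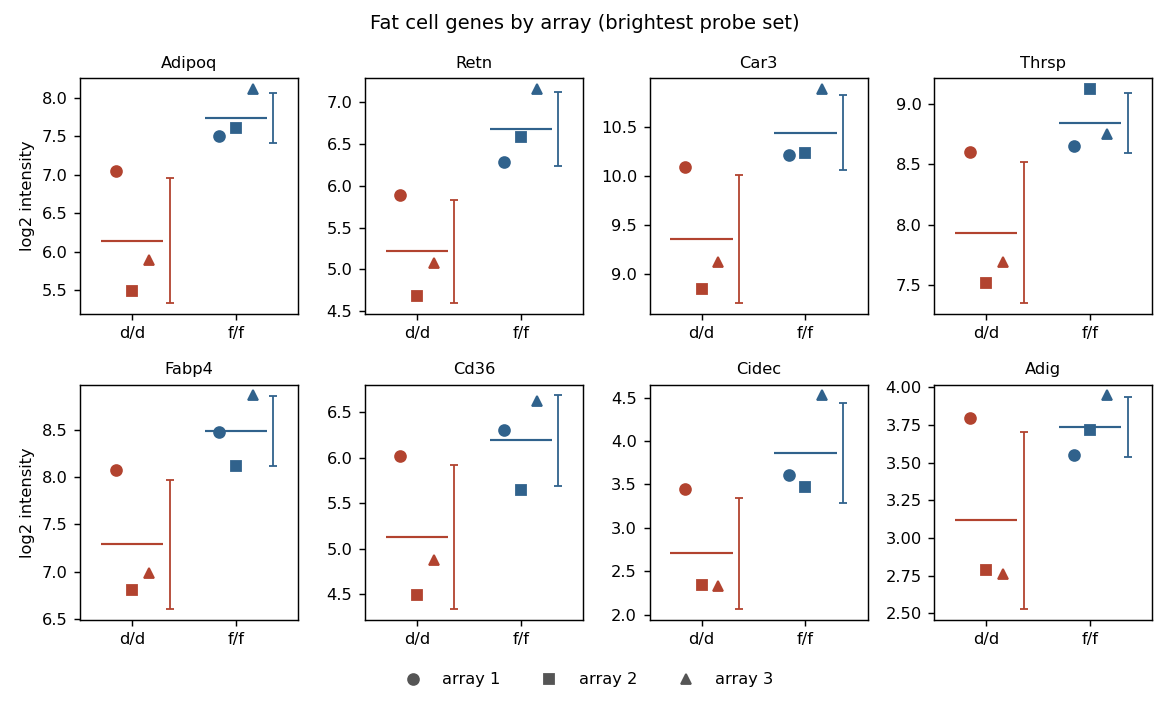
Log2 intensity (vertical axes, which do not start at 0) of the brightest probe set of 8 fat cell genes in d/d uteri (left, red) and f/f uteri (right, blue), with 1 point per array, its shape the array number, a line for the mean and a bar for the SD (n = 3 each). The panels include Fabp4 and Cd36 and leave out the fat-confined Lep and Lipe. Array d/d 1 stands above d/d 2 and d/d 3 in all 8 panels, and for Adipoq it measured 7.05 against 5.49 and 5.90. In the dim Lep it was the lowest d/d array, at 1.74 against 1.90 and 1.94.

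Car3, Thrsp and Adig repeated the pattern. Car3 encodes carbonic anhydrase 3, very abundant in white fat and also made in slow muscle. Its brightest probe set measured 10.09, 8.85 and 9.12 in d/d and 10.21, 10.23 and 10.89 in f/f. Thrsp, a nuclear regulator of fatty acid synthesis, gave 8.60, 7.51 and 7.69 in d/d uteri and 8.65, 9.12 and 8.75 in f/f uteri. In both genes d/d 1 fell just short of the lowest f/f array, by 0.12 for Car3 and 0.049 for Thrsp, and the differences were -1.09 ± 0.33 and -0.90 ± 0.27 (SE; limma adjusted p of 0.210 and 0.222). A second Thrsp probe set gave -0.85 without overlap, and the third, 1444166_at, gave 0.019 with the genotypes overlapping, at levels of 2.90 to 3.36 in d/d and 3.06 to 3.20 in f/f. Adig, a small membrane protein of adipocytes, stood at 3.80, 2.79 and 2.76 in d/d and at 3.55, 3.71 and 3.95 in f/f, so that d/d 1 lay within the f/f range.

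Uptake and transport genes had similar values. Fabp4, the fatty acid binding protein of fat cells, capillaries and macrophages, measured 8.07, 6.81 and 6.99 in d/d uteri and 8.48, 8.12 and 8.87 in f/f uteri. Cd36, a fatty acid transporter with a like spread of cell types, gave 6.02, 4.49 and 4.87 in d/d and 6.30, 5.65 and 6.62 in f/f, the d/d 1 value falling among those of f/f. Their differences were -1.20 ± 0.33 and -1.06 ± 0.40 (SE; limma adjusted p of 0.175 and 0.334). Lpl, the lipoprotein lipase, differed in having little spread among the d/d arrays. It measured 6.20, 6.07 and 6.15 in d/d, a range of 0.13, and 6.72, 6.28 and 7.13 in f/f, with a difference of -0.57 ± 0.19 (SE; limma adjusted p = 0.277).

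The regulators differed among themselves. Pparg, the master regulator of fat cells, stood at 2.60, 2.22 and 2.33 in d/d uteri, all under 2.69, and at 2.96, 2.60 and 3.26 in f/f uteri (difference -0.56 ± 0.18 SE; limma adjusted p = 0.239). Cebpb, an early factor of fat cell formation that many tissues use, overlapped between genotypes, with a difference of 0.0068 and a 95% confidence interval from -0.37 to 0.38.

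Arrays of the same genotype differed widely in these genes, and d/d 1 also stood apart over the whole array. Over all probe sets its log2 values correlated at 0.995 with f/f 1, but at 0.990 with d/d 2 and 0.991 with d/d 3, which correlated at 0.995 with each other. Of the 8 fat-confined genes, 7 had a mean above 2.69, all but Lep, and d/d 1 was the highest d/d array in 7 of 7, where it was the highest for 41.2% of the 10979 genes above that level. The 3 d/d arrays spanned over 1 log2 unit in 6 of the 7, Lipe being the exception, against 3.67% of those 10979 genes. Among f/f arrays f/f 3 was highest in 5 of 7, against 39.6%, the exceptions being Thrsp and Lipe, and the span passed 1 in 1 of 7, Cidec, against 1.47%. The mean level of the 7 genes was 6.09, 4.96 and 5.21 in d/d 1, 2 and 3, and 6.31, 6.36 and 6.79 in f/f 1, 2 and 3. Array d/d 1 therefore lay 0.88 above the next d/d array and 0.23 below the lowest f/f array. The median span of the 20 other measured genes above 2.69 was 0.27 in d/d and 0.31 in f/f.

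The likeness of each gene to that mean was measured as Pearson's correlation of deviations from the genotype means over the 6 arrays, which share normalization, with the gene itself left out of the mean. It was 0.997 for Adipoq, 0.991 for Car3, 0.962 for Fabp4, 0.953 for Adig, 0.952 for Retn and 0.925 for Cd36. It was 0.896 for Cidec, and lower for the fat-confined Thrsp (0.738), Lipe (0.509) and the dim Lep (-0.0087). In the other 24 measured genes it ran from -0.915 for Acly to 0.962 for Fabp4. Pnpla3 (0.897), Pnpla2 (0.866), Pparg (0.739) and Agpat2 (0.728) were among the higher of these. Lpl (0.456) and Plin2 (0.292) were lower. Pnpla3, Acly and Plin2 varied little within genotypes (pooled SD of 0.053, 0.058 and 0.070), so their correlations rest on very small deviations. Among 1161 other genes above 2.69 with a within-genotype SD of at least 0.3, the 8 most alike were Steap4 (0.981), Optc, Cntn1, Gata6, Chrdl2, Prkar1b, Sox18 and Hp1bp3 (0.929). Steap4, a metalloreductase made in fat and other cells, measured 6.08, 5.41 and 5.43 in d/d uteri and 6.35, 6.45 and 6.71 in f/f uteri, with no overlap. Sox18, a transcription factor of vessels, also had no overlap, and in the remaining 6 the genotypes overlapped. None of the 8 passed the limma test between genotypes, in which 1.14% of all genes were called, and the lowest adjusted p was 0.0996, for Steap4.

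Without d/d 1, 11 of the 32 genes were called lower by limma and 3 higher, against 2.93% and 1.95% of all genes in the same fit. The 11 were Adipoq (-2.04), Retn (-1.80), Fabp4 (-1.60), Cidec (-1.53), Cd36 (-1.51), Car3 (-1.46), Thrsp (-1.24), Adig (-0.96), Pnpla2 (-0.78), Acacb (-0.51) and Gpam (-0.50), with adjusted p between 0.00255 and 0.0445. They include 6 of the 8 fat-confined genes. Array d/d 1 was the highest d/d array in all 11 and lay within or above the f/f range in 4. Calling genes without d/d 1 favours those in which it stood high, so its place in the 11 follows largely from the choice. Leaving out any other single array gave 0 members called lower. Over all 16813 genes, too, the count called lower was largest without d/d 1, at 493, and was 10 in the fit with fewest.

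**Figure D2:**
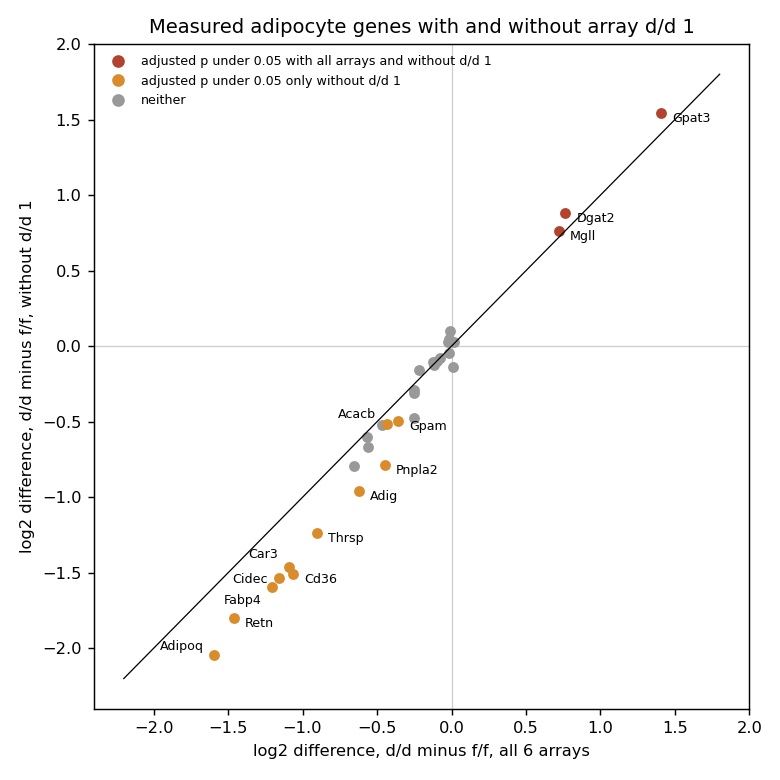
Log2 difference of the 32 measured adipocyte genes, d/d minus f/f, with all 6 arrays (horizontal) and without array d/d 1 (vertical), the line marking equal values. The 11 orange genes passed the adjusted p without d/d 1 but not with all arrays, and lie below the line, Adipoq at -2.04 against -1.59, while the 3 red genes passed in both.

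Probe sets of a gene disagreed on d/d 1. Car3 has 4 of them. The probe set 1430584_s_at, whose suffix marks probes shared by several transcripts, measured 3.18, 3.26 and 2.95 in d/d uteri and 4.50, 4.33 and 4.47 in f/f uteri. Here d/d 1 did not stand apart from the other d/d arrays, lay 1.14 below the lowest f/f array, and the difference of -1.30 ± 0.11 passed (SE; limma adjusted p = 0.00457 over all probe sets, of which 0.210% were called lower). The probe set 1460256_at had almost the same difference, -1.31 ± 0.39, but from 7.41, 5.83 and 6.41 in d/d and 7.56, 7.56 and 8.45 in f/f, and its adjusted p was 0.269. The dimmest, 1453588_at, gave -0.56, with all d/d values under 2.69.

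Fabp4 showed the same split. Its dim probe set 1424155_at measured 2.08, 2.04 and 2.10 in d/d and 2.64, 2.60 and 2.60 in f/f, with a difference of -0.54 ± 0.08 (SE; limma adjusted p = 0.0314 over probe sets), although every value lay under 2.69. The probe set 1425809_at gave 2.90, 2.43 and 2.55 in d/d and 3.50, 3.33 and 2.86 in f/f, where f/f 3 was the lowest f/f array, and did not pass (-0.60; adjusted p = 0.281). In the brightest, by contrast, f/f 3 was the highest. Of the 58 probe sets of the 32 genes 2 were called lower, these of Car3 and Fabp4, and 3 were called higher, where 0.314% of all probe sets were called higher and 0.524% in either direction. Of the 58, 17 had means under 2.69 in both genotypes.

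**Figure D3:**
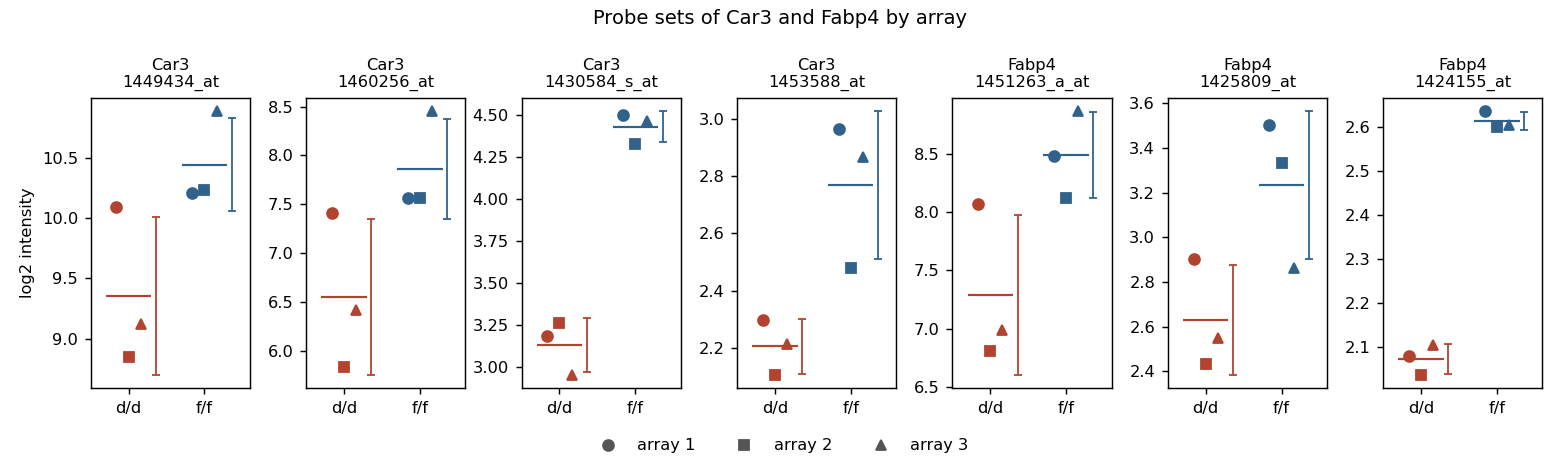
Log2 intensity (vertical axes, which do not start at 0) of the 4 Car3 and 3 Fabp4 probe sets in d/d uteri (left, red) and f/f uteri (right, blue), with points, mean lines and SD bars as in the plot of 8 genes. In Car3 1430584_s_at and Fabp4 1424155_at the 3 d/d arrays lie together, with d/d 1 at 3.18 and 2.08, while in the brightest probe sets d/d 1 lies near the f/f arrays.

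Of the enzymes that build and break down glycerolipids, 3 rose in d/d uteri. Gpat3 encodes an acyltransferase that makes the first step from glycerol 3-phosphate towards triglyceride. It measured 4.55, 4.98 and 4.92 in d/d uteri, against 3.15, 3.36 and 3.73 in f/f uteri. All d/d arrays lay at least 0.82 above the highest f/f array, and Gpat3 rose 2.65-fold (1.41 ± 0.17 SE; limma adjusted p = 0.0155). Dgat2, which performs the last step to triglyceride, stood at 7.53, 7.93 and 7.83 in d/d and 6.87, 6.99 and 7.13 in f/f, with no overlap. It rose 1.70-fold (0.77 ± 0.13 SE; limma adjusted p = 0.0421). A second Dgat2 probe set gave 0.60 ± 0.14 (SE), also with no overlap, but did not pass over all probe sets (limma adjusted p = 0.154). Mgll, the lipase that splits the last fatty acid from monoglyceride and that also breaks down an endocannabinoid, stood at 7.48, 7.62 and 7.56 in d/d and 6.61, 6.81 and 7.06 in f/f. It rose 1.65-fold (0.72 ± 0.12 SE; limma adjusted p = 0.0446 over genes), but the same probe set did not pass over all probe sets, at an adjusted p of 0.0537. Of the further Mgll probe sets, one gave 0.85 and passed (0.0240), another gave 0.43 without overlap and did not (0.166), and the fourth, dim in both genotypes, gave -0.0046.

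In all 3 genes d/d 1 was the lowest d/d array, so it lay nearest to f/f in these as well, but the spread within d/d was 0.43, 0.39 and 0.14 for Gpat3, Dgat2 and Mgll. Their likeness to the fat mean was -0.261, -0.563 and 0.097. With single arrays left out Gpat3 was called in 3 of 6 fits, with adjusted p up to 0.0924, and Dgat2 and Mgll in 1 of 6, that without d/d 1, with adjusted p up to 0.165 and 0.201. The differences stayed between 1.28 and 1.56 for Gpat3, 0.68 and 0.88 for Dgat2 and 0.62 and 0.84 for Mgll. None of the 3 passed when d/d 2, d/d 3 or f/f 2 was left out, and Gpat3 alone did when f/f 1 or f/f 3 was. Averaging a gene's probe sets ended the calls of Dgat2 and Mgll (adjusted p of 0.0575 and 0.0639), and median centring that of Mgll (0.0517).

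**Figure D4:**
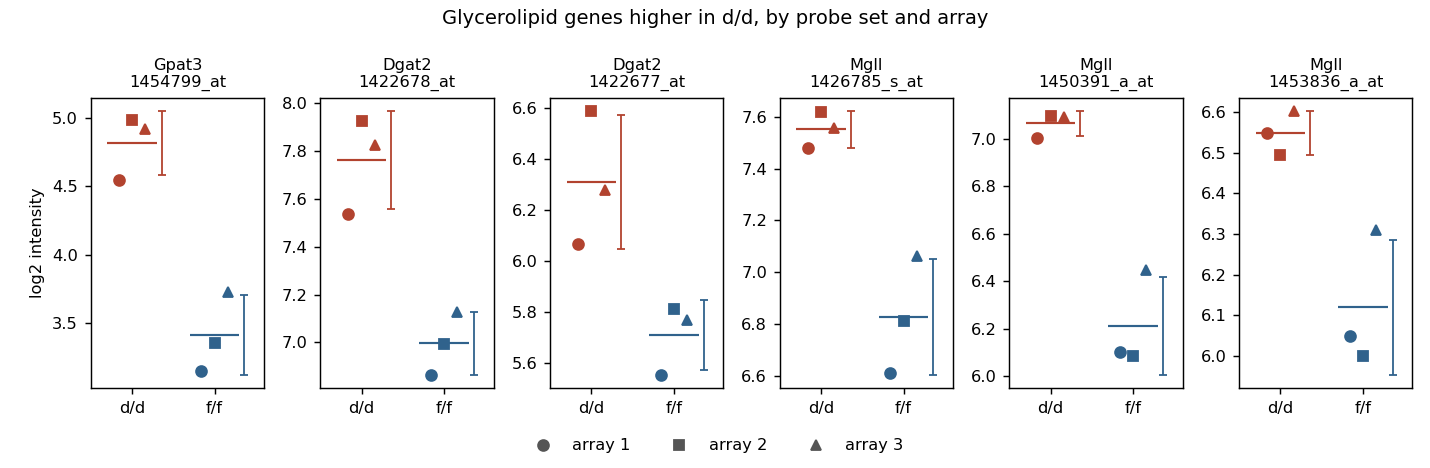
Log2 intensity (vertical axes, which do not start at 0) of 6 probe sets of Gpat3, Dgat2 and Mgll in d/d uteri (left, red) and f/f uteri (right, blue), with points, mean lines and SD bars as in the plot of 8 genes. All d/d points lie above all f/f points in each panel, for Gpat3 at 4.55 to 4.98 against 3.15 to 3.73.

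Of the 7 measured enzymes of glycerolipid synthesis 2 passed upwards, Gpat3 and Dgat2, and 0 downwards, against 0.630% and 0.512% of all genes. Gpam, the mitochondrial counterpart of Gpat3, measured 8.17, 7.76 and 7.76 in d/d uteri and 8.38, 8.22 and 8.15 in f/f uteri (difference -0.36 ± 0.13 SE; limma adjusted p = 0.337). Dgat1, the other enzyme of the last step, differed by -0.095 with a 95% confidence interval from -0.34 to 0.15, its level near 2.69. Agpat2 and Lpin1, which act between these steps, had -0.25 each. Gpd1, the dehydrogenase that supplies glycerol 3-phosphate, had -0.46 without overlap, from 3.22, 2.97 and 3.14 in d/d and 3.38, 3.38 and 3.96 in f/f. A second Gpd1 probe set gave -0.61, also without overlap. The third, dim in both genotypes, gave 0.19 with all d/d values above all f/f values. Neither passed over all probe sets (limma adjusted p of 0.127 and 0.548).

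The lipases of the earlier steps of fat breakdown did not pass in either direction. Lipe, the hormone-sensitive lipase, measured 3.73, 3.05 and 3.57 in d/d and 4.39, 3.76 and 4.18 in f/f (difference -0.66 ± 0.21 SE; limma adjusted p = 0.257). Pnpla2, adipose triglyceride lipase, gave 5.93, 4.97 and 4.88 in d/d and 5.80, 5.60 and 5.72 in f/f, so d/d 1 was the highest of all 6 arrays. Pnpla3, a related lipase, differed by -0.018.

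Of 6 measured enzymes of fatty acid synthesis 0 passed in the limma fit, against 1.14% of all genes. At an unadjusted p under 0.05, 1 was lower and 0 higher, against 6.88% and 5.29% of all genes. The 1 was Acacb, an acetyl-CoA carboxylase that governs fatty acid oxidation. It stood at 4.004, 3.87 and 3.67 in d/d uteri and 4.17, 4.34 and 4.34 in f/f uteri (difference -0.44 ± 0.11 SE; limma adjusted p = 0.141). Fasn, the fatty acid synthase, had a 95% confidence interval of the difference from -0.30 to 0.14, Acaca, the carboxylase of the synthetic route, from -0.18 to 0.22, and Acly, which supplies its acetyl-CoA, from -0.21 to 0.17. Me1, which supplies NADPH, had -0.13. Elovl6, a fatty acid elongase, lay below 2.69 on every array.

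**Figure D5:**
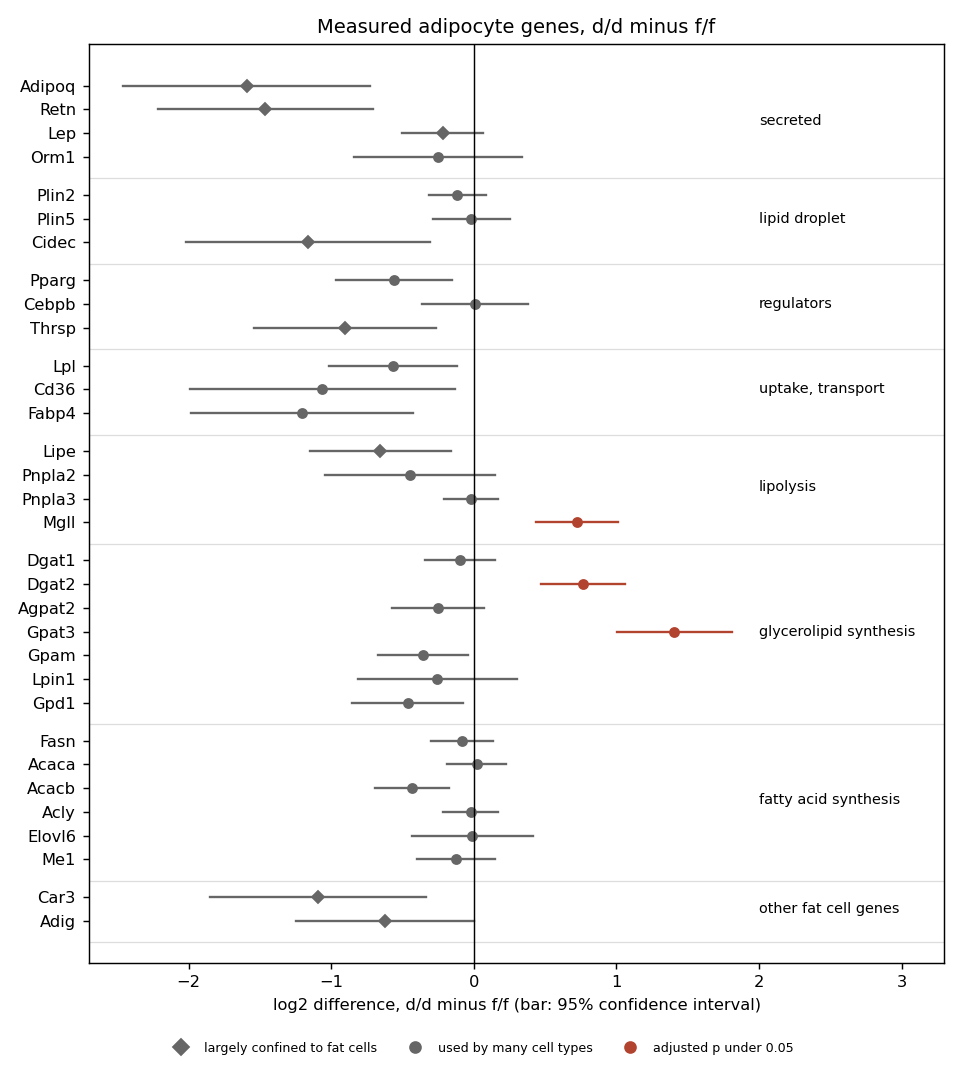
Log2 difference, d/d minus f/f (horizontal axis), of the 32 measured adipocyte genes in groups by role, with bars for the 95% confidence interval of the limma fit, diamonds for the 8 genes largely confined to fat cells and red for an adjusted p under 0.05. The red points are Mgll (0.72), Dgat2 (0.77) and Gpat3 (1.41), and the diamonds lie between -1.59 and -0.22.

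Further fat genes were read from lists made by role. Of 23 measured genes of other fat cell proteins 0 were called higher and 1 lower, against 0.630% and 0.512% of all genes. The 1 was Pck1, an enzyme of glycerol and glucose synthesis. By any amount 21 of the 23 were lower, against 53.4% of all genes. Pck1 stood at 4.77, 3.71 and 3.58 in d/d and 5.90, 5.63 and 6.02 in f/f, a difference of -1.83 ± 0.30 (SE; limma adjusted p = 0.0389), with d/d 1 again highest among d/d. Rbp4, a retinol carrier, and Gpihbp1, which holds lipoprotein lipase on capillaries, had -1.31 and -0.50 (limma adjusted p of 0.0630 and 0.0595). Without d/d 1, 8 of the 23 were called lower, against 2.93% of all genes. Cdo1, a cysteine dioxygenase abundant in fat, was among them, with 7.45, 5.44 and 5.47 in d/d and 7.51, 7.27 and 6.90 in f/f.

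Of 13 measured regulators of lipid genes 0 passed in the limma fit with all arrays, and 3 were called lower without d/d 1, where 2.93% of all genes were. At an unadjusted p under 0.05, 4 of these 13 were lower and 0 higher, against 6.88% and 5.29% of all genes. Klf15, a glucocorticoid-responsive factor of fat and muscle, measured 4.81, 3.03 and 3.31 in d/d and 5.85, 5.66 and 5.34 in f/f (difference -1.90 ± 0.42 SE; limma adjusted p = 0.0957). Ppard, a receptor related to Pparg, stood at 3.10, 3.09 and 2.98 in d/d and 3.56, 3.42 and 3.39 in f/f, and Ebf1, a factor of fat and B cell formation, at 6.51, 5.78 and 5.78 in d/d and 6.77, 6.51 and 6.56 in f/f (differences of -0.40 and -0.59; limma adjusted p of 0.0940 and 0.272). Cebpd, another early fat factor, ran from 7.62 in d/d 1, above every f/f array, to 5.86 in d/d 3.

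Of 8 measured genes of brown fat 0 passed, and 2 were higher at an unadjusted p under 0.05 and 0 lower, against 5.29% and 6.88% of all genes. These were Ppargc1a, a coactivator of mitochondrial genes in many tissues, at 5.49, 6.49 and 6.02 in d/d against 5.01, 4.96 and 5.20 in f/f, and Prdm16, a regulator of brown fat identity, at 4.08, 4.09 and 3.63 in d/d against 3.29, 3.17 and 2.97 in f/f (differences of 0.94 ± 0.23 and 0.79 ± 0.15 SE; limma adjusted p of 0.121 and 0.0610). Without d/d 1 both were called higher, with limma adjusted p of 0.00568 and 0.0453, where 1.95% of all genes were. Cox8b and Dio2, above 2.69 in both genotypes, overlapped between genotypes, with differences of 0.0051 and 0.11 (limma adjusted p of 0.997 and 0.913). Elovl3, Otop1, Ebf2 and Zic1 lay below 2.69 in both genotypes. Of 9 measured genes of fat precursors 0 passed. At an unadjusted p under 0.05, 0 were higher and 1 lower, Pi16 (-0.58), against 5.29% and 6.88% of all genes. The next smallest p belonged to Icam1 (-0.39) and Gata2 (-0.35), with limma adjusted p of 0.448 and 0.512. Without d/d 1, 2 of the 9 were called lower, against 2.93% of all genes. These were Pi16 and Icam1 (limma adjusted p of 0.0342 and 0.0224).

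Markers of other cell types are set beside these values, since the arrays also differed in them. Array d/d 1 was again the highest d/d array in 7 of 8 smooth muscle, 5 of 7 endothelial, 6 of 10 stromal and 6 of 7 macrophage markers. It was so in 3 of 6 mesothelial, 3 of 8 skeletal muscle and 1 of 8 epithelial markers, and in 41.2% of all genes above 2.69. The summed intensity of the 8 fat-confined genes was 1711, 737 and 884 in d/d 1, 2 and 3 and 1893, 2093 and 2805 in f/f 1, 2 and 3. Car3 with Adig made up 1104, 467 and 564 of it in d/d and 1195, 1217 and 1911 in f/f. Car3 and then Thrsp were the brightest of the 8 on every array, so this sum mostly reflects them. Endothelial sums in the same arrays were 739, 565 and 647 in d/d and 967, 962 and 979 in f/f. Stromal sums were 13736, 11675 and 12109 in d/d and 15160, 14741 and 15720 in f/f. Smooth muscle sums were 6336, 4739 and 5556 in d/d and 6589, 5824 and 6731 in f/f. In all 4 sums d/d 1 was the highest d/d array, and the genotypes overlapped in smooth muscle alone of the 4.

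All 7 measured endothelial markers had lower values in d/d (53.4% of all genes did). Of the 7, 0 were called, 5 were lower at an unadjusted p under 0.05 (6.88% of all genes) and 5 were called without d/d 1 (2.93%). The 10 stromal markers had lower values too, and 1 was called, Thy1 (0.512% of all genes called lower). At an unadjusted p under 0.05, 5 of the 10 were lower, and 2 were called lower without d/d 1. Of 8 smooth muscle markers all had lower values and 0 were called, with 1 at an unadjusted p under 0.05, Des. Without d/d 1, Des alone of the 8 was called lower.

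Of 8 measured epithelial markers 7 had higher values in d/d (46.6% of all genes did). With all arrays 2 were called higher, Muc1 and Cdh1 (0.630% of all genes). At an unadjusted p under 0.05, 6 were higher and 0 lower (5.29% and 6.88% of all genes). Without d/d 1, 6 were called higher (1.95% of all genes). Epithelial sums were 3960 to 4220 in d/d and 2592 to 3207 in f/f. Of 7 macrophage markers 0 were called and 1 was higher at an unadjusted p under 0.05 (5.29% of all genes), with a median difference of 0.0063 and sums of 454 to 511 in d/d and 500 to 519 in f/f. Of 6 mesothelial markers 0 were called and 1 was higher at an unadjusted p under 0.05, with a median of 0.10 and sums of 248 to 282 in d/d and 236 to 257 in f/f. Of 8 skeletal muscle markers 0 were called and 4 lay below 2.69 in both genotypes. At an unadjusted p under 0.05, 2 were lower (6.88% of all genes), Acta1 and Des, which is also counted among the smooth muscle markers. These 2 genes made up 91.7% to 95.9% of the skeletal muscle sums of 492 to 567 in d/d and 660 to 911 in f/f. No endothelial, stromal, smooth muscle or epithelial marker lay below 2.69 in both genotypes. The part of these cell types in the differences of the fat genes was not tested.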

How the data were processed

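Uterine RNA was measured on Affymetrix arrays, with biotin-labelled cRNA made from 500 ng of total RNA per sample, per the labels. The deposited intensity values are linear, 1 per probe set and array, with RMA named in the submitters' processing notes and no version. RMA brings arrays to a shared distribution and compresses differences at the dim end. Log2 values had been assumed when the tests were planned, so log2 was taken here with no added constant. No column was left out. Depth has no meaning for arrays, and their number limits the precision.

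All 41420 probe sets, and 16813 genes by the brightest of the 31562 probe sets with 1 symbol, were fitted by limma 3.58.1 under R 4.3.3 (moderated by eBayes, no covariate, 2-sided, 4 residual degrees of freedom). Benjamini-Hochberg adjustment ran over all genes or all probe sets, with a threshold of 0.05. Nothing says that samples were separate animals, so p-values measure the spread between samples, which may be technical. The steps were tested on simulated data.

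The adipocyte genes, their role groups and the other lists were chosen with earlier results of these data known. All measured members are named, with list genes that passed or were among the 3 smallest p, and the 8 genes most alike. Cdo1, Cebpd and the cell type markers were named after their values were seen. Alternatives were array weights, a replicate block, robust variance with a trend on intensity, median centring or a second quantile normalization, dropping dim probe sets or those with the suffix _x_at, averaging all probe sets, and leaving out each array or both arrays numbered 1.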

Additional observations from a re-analysis of the deposited data

How the results depend on the processing

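With 3 arrays a genotype, what passed depended on single arrays. With each left out in turn, genes past the threshold ranged from 26 to 821 and probe sets from 37 to 971, adipocyte genes called higher from 0 to 3 and lower from 0 to 11, and their median difference from -0.39 to -0.20 (fat-confined -1.35 to -0.77, others -0.19 to -0.086). The largest counts, and all 11 lower, were without d/d 1. Leaving out both arrays numbered 1 gave 540 genes, 657 probe sets, 8 adipocyte genes lower and a fat-confined median of -1.45. Array weights gave 381 genes, 329 probe sets and 2 adipocyte genes lower, Adipoq and Retn. The mean of all probe sets left 1 adipocyte gene higher, Gpat3. The cause was not tested.

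Arrays were not treated as pairs, since the labels give no batch. Deviations from the genotype means correlated between equal numbers at 0.461, 0.0228 and 0.178, and between unequal numbers at -0.358 to 0.299. Whether arrays of equal number belong together was not tested. The replicate block gave 457 genes, 574 probe sets and 1 adipocyte gene lower, Lipe (adjusted p = 0.0161).

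Directions turned in genes that passed in neither fit, all with differences near 0 except Orm1 (-0.25). Array weights turned Plin5 (0.019), Cebpb (-0.049), Acly (0.00058) and Elovl6 (0.031), quantile normalization Cebpb (-0.0026), and leaving out both arrays numbered 1 Plin5 (0.12), Cebpb (-0.028) and Acly (0.022). With single arrays left out the range crossed 0 for Plin5 (-0.11 to 0.055), Cebpb (-0.14 to 0.15), Acly (-0.048 to 0.024), Elovl6 (-0.21 to 0.099), Pnpla3 (-0.045 to 0.014), Acaca (-0.040 to 0.054) and Orm1 (-0.42 to 0.072).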
